A study of Mus musculus with 27 samples.

Results

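This comparison sets 3 arrays of 3T3-L1 cells at 48 h of a fat-inducing hormone mixture against 3 arrays of cells that carried Flag-ISL1 and had not yet received it, 6 of the 27 arrays of the series, across all 19938 genes tested. The 48 h arrays were chosen by a measured value, an Isl1 signal over 12 on the log2 scale, and this goes against their label: GEO lists them as cells with the empty vector at 48 h. They are called the arrays labelled vector 48 h throughout, and no array was reassigned. By label, construct and time both differ between the 2 groups, and every direction below rests on the choice by Isl1 signal. In GEO the sample numbers of the 48 h arrays form a run of their own, and so do those of the 0 h arrays. Time and any batch that follows these runs cannot be told apart. Counts with the arrays labelled ISL1 48 h in their place are given in the closing section.

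3T3-L1 is a mouse embryo fibroblast line of committed preadipocytes. The cells held the retroviral vector pMIG, empty or with Flag-ISL1, and were left for 2 days after confluence. The mixture held 350 nM insulin, 0.5 mM isobutylmethylxanthine, 250 nM dexamethasone, 400 nM biotin and 10% fetal calf serum. Serum at 10% is also listed for the 0 h cells, and 10% CO2 for all groups. The groups used here, of 3 arrays each, were those labelled vector at 48 h in the mixture and ISL1 at 0 h, and for comparison those labelled ISL1 at 48 h and vector at 0 h. The 0 h cells were collected immediately before the mixture went on. The design text describes the arrays of a group as biological triplicates, and the sources used here do not say whether a group came from more than 1 infected pool or clone.

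In preadipocytes insulin, a glucocorticoid and a rise in cAMP act together: C/EBP-beta and C/EBP-delta come first, and they turn on PPAR-gamma and C/EBP-alpha, the factors that hold the fat cell programme in place. During this switch 3T3-L1 cells re-enter the cell cycle for a short time before they stop dividing and fill with lipid. ISL1 is a LIM homeodomain transcription factor best known from motor neurons, heart and pancreatic islets, and BMP4 is a secreted ligand that commits mesenchymal cells to the fat lineage.

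Isl1, the value that chose the arrays, is given as a description with no test. It read 12.79, 12.76 and 12.72 in the 3 arrays labelled vector 48 h, against 12.64, 12.62 and 12.61 in the ISL1 0 h arrays. The 3 arrays labelled ISL1 48 h read 7.48, 8.01 and 7.47, against 7.37, 7.47 and 7.17 in the vector 0 h arrays. The lowest array inside the threshold of 12 stood at 12.72 and the highest 48 h array outside it at 8.01, while the vector arrays before 48 h ran between 7.17 and 8.65. The sources used here do not say whether the Isl1 probe set measures the transcript of the construct.

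Other genes that set the constructs apart at 0 h were looked at in the 48 h arrays, as a description. Without Isl1, 75 genes differed at least 4-fold between the ISL1 0 h and vector 0 h arrays. Of these, 70 (93.3%) had the same sign when the arrays labelled vector 48 h were set against those labelled ISL1 48 h, and 5 had the opposite sign, beside 56.1% with the same sign over all genes. One of them, chosen after its values were seen, was Rxfp1, the relaxin receptor gene. It read 9.86, 9.58 and 9.68 in the arrays labelled vector 48 h, against 12.11, 12.14 and 12.10 in the ISL1 0 h arrays, and 5.84, 5.89 and 5.82 in the arrays labelled ISL1 48 h, against 6.01, 5.96 and 5.86 in the vector 0 h arrays. In all 6 arrays with a high Isl1 signal Rxfp1 stood above every one of the other 6.

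Below, the response of a gene is its mean log2 value in the arrays labelled vector 48 h minus that in the ISL1 0 h arrays, with the standard error of a limma fit over all 27 arrays. A gene rose or fell where its Benjamini-Hochberg adjusted p over 19938 genes was under 0.05. By that rule 6619 genes changed, 33.2% of those tested: 2823 rose (14.2%) and 3796 fell (19.0%). At least a 2-fold change was seen for 1013 (5.08%), of which 367 rose (1.84%) and 646 fell (3.24%), and the median over all genes was 0.03. The split depends on scaling: genes higher made up 42.6% of the calls on the deposited values, 57.4% after median centring (4218 higher, 3128 lower) and 50.01% after a further quantile normalization (3834 higher, 3832 lower). The arrays of the groups did not overlap for 4694 genes that were higher (23.5%) and 4803 that were lower (24.1%). Among the genes named below as changed, the largest adjusted p was 0.0180.

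The 15 largest rises were led by Prg4, Lcn2 and Cxcl13, which encode secreted proteins. Prg4, the joint lubricant lubricin, read 13.47, 13.47 and 13.38 in the arrays labelled vector 48 h, against 6.62, 6.55 and 6.48 in the ISL1 0 h arrays, a response of 6.89 ± 0.113 (adjusted p = 1.72e-24). Lcn2, lipocalin 2, which binds bacterial siderophores, read 13.69, 13.81 and 13.65, against 7.32, 7.47 and 7.50, a response of 6.29 ± 0.0941. The B cell chemokine gene Cxcl13 read 11.97, 12.53 and 12.38, against 6.48, 6.65 and 6.44, a response of 5.77 ± 0.135. All 3 lay below the median gene of the array in every ISL1 0 h array, and for each gene every array labelled vector 48 h lay above every ISL1 0 h array. Acute phase proteins followed: serum amyloid Saa3 rose by 4.65 ± 0.125, and the orosomucoids Orm3 and Orm1 by 4.45 ± 0.0990 and 4.01 ± 0.121. The surface lectin Cd33 rose by 4.90 ± 0.112, the melanocortin receptor Mc5r by 4.31 ± 0.106 and the adhesion molecule Ceacam1 by 3.97 ± 0.135. Ang5, of the angiogenin family, rose by 4.88 ± 0.143, Ifi207, of the Ifi200 family, by 4.07 ± 0.148 and Fam110c by 3.87 ± 0.0969. Agt, the angiotensin precursor, Retn, the adipokine resistin, and the nuclear receptor gene Nr4a1 completed the 15, and are described below. Orm1 and Orm3, Ang5, Ifi207 and Trim30d have close relatives in the mouse genome, and how far their probe sets tell these apart was not tested.

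The 15 largest falls were led by Ifit3, an interferon-induced gene described below. Akr1c14, a steroid dehydrogenase, fell by 3.43 ± 0.143, Sorbs2, an adaptor of actin fibres, fell by 3.40 ± 0.0959 and Glt8d2, a glycosyltransferase family member, fell by 3.28 ± 0.0773. Mmp9, the gelatinase that cuts basement membrane collagen, read 8.23, 8.16 and 8.34 in the arrays labelled vector 48 h, against 11.41, 11.26 and 11.38 in the ISL1 0 h arrays, a response of -3.10 ± 0.0868. The monocyte chemoattractant gene Ccl2 read 9.35, 9.57 and 9.86, against 12.58, 12.62 and 12.70, a response of -3.04 ± 0.0999. For both, every array labelled vector 48 h lay below every ISL1 0 h array. Rab7b, a small GTPase of the endosome, fell by 3.10 ± 0.120, Ccdc141 fell by 3.03 ± 0.131 and Mustn1, of the musculoskeletal system, fell by 3.03 ± 0.0730. Trim30d, of the tripartite motif family, fell by 3.41 ± 0.164. The other falls (Ifit3, Oasl2, Usp18, Ifit1, Timp3 and Myl9) belong to groups described below.

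**Figure D1:**
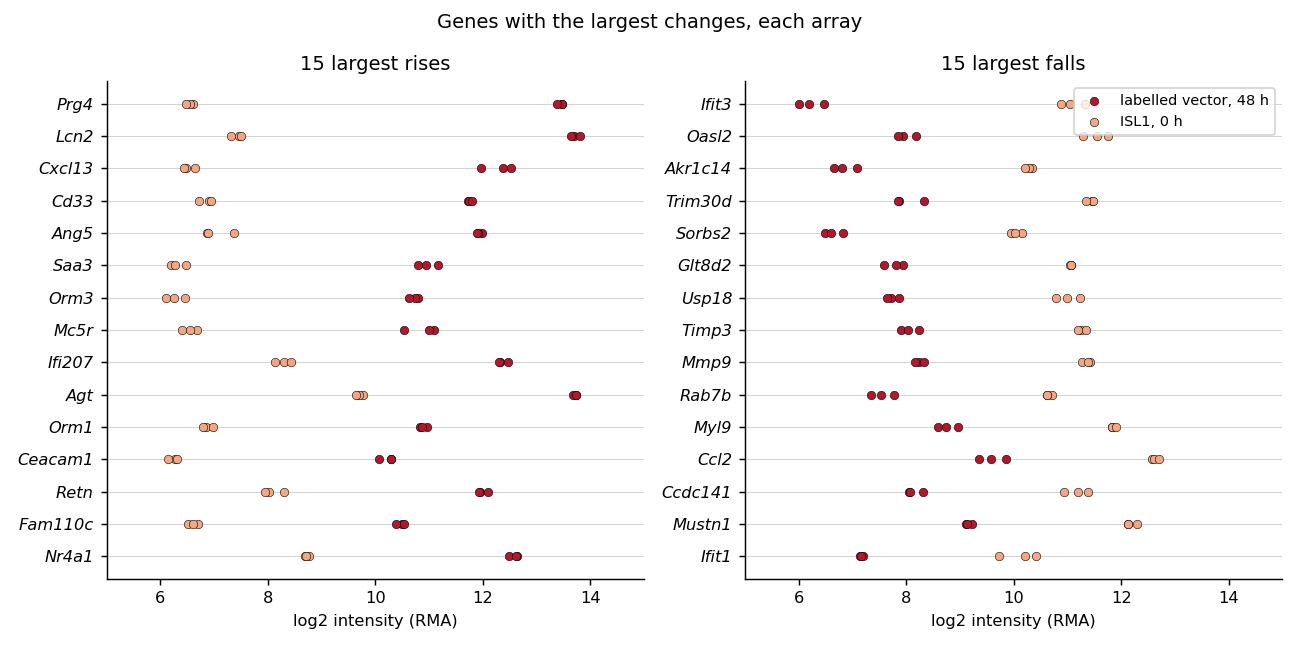
Log2 intensity of the 15 genes with the largest rises (left) and the 15 with the largest falls (right) in each array labelled vector 48 h and each ISL1 0 h array, 1 point per array. In every row the points of the groups are apart, with Prg4 averaging 13.44 in the arrays labelled vector 48 h and 6.55 in the ISL1 0 h arrays, and Ifit3 6.22 and 11.08.

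To ask whether these changes differ from those of the other 48 h arrays, the response was set against that of the arrays labelled ISL1 48 h minus the vector 0 h arrays. These 2 responses share no array, and each runs across construct labels. By label, response minus other response is vector minus ISL1 added over 0 h and 48 h, an effect of construct and not of the mixture. It reads as a difference of responses only under the choice by Isl1 signal. The other response had 8248 genes called (41.4%), 4251 higher (21.3%) and 3997 lower (20.0%), with a median of 0.06. At least 2-fold were 1249 of them (6.26%), 496 higher (2.49%) and 753 lower (3.78%). Across the 19938 genes, which are not independent replicates, the 2 responses had a Pearson r of 0.65. Of the 367 genes at least 2-fold higher here, 341 had the same sign there and 192 (52.3%) were also called at least 2-fold higher. Of the 646 at least 2-fold lower, 474 had the same sign and 291 (45.0%) were also called. The difference, response minus other response, was itself tested: 794 genes (3.98%) had an adjusted p under 0.05 and at least a 2-fold difference, 301 positive (1.51%) and 493 negative (2.47%), and 4888 (24.5%) had the adjusted p alone. These 3 comparisons were tested, and a difference below is called where both conditions held.

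**Figure D2:**
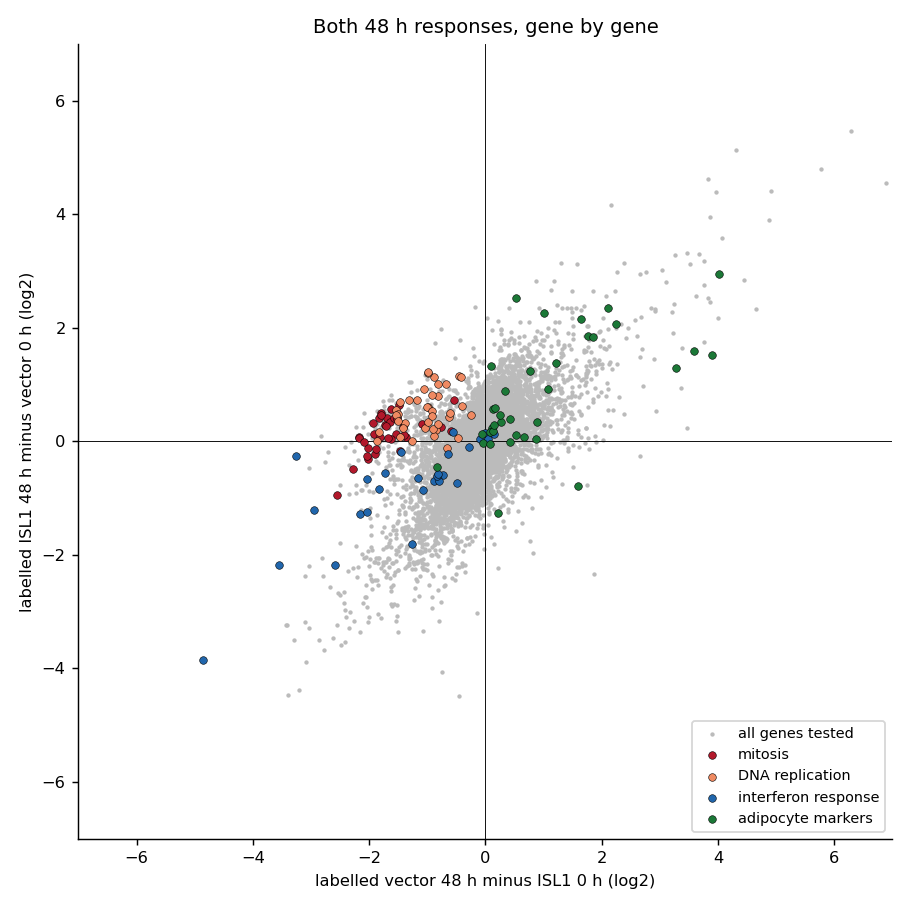
Log2 difference of the arrays labelled vector 48 h minus ISL1 0 h (horizontal) against that of the arrays labelled ISL1 48 h minus vector 0 h (vertical), 1 grey point per gene, with 4 gene lists in colour. Mitosis and DNA replication genes lie left of 0 and mostly above the horizontal line, while interferon response genes lie to the lower left and most adipocyte markers to the upper right.

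Mitosis genes fell as a whole. All 37 measured members fell in the arrays labelled vector 48 h (19.0% of all genes did), 34 of them at least 2-fold, with a median response of -1.69 beside 0.03 over all genes. Kif23, a motor of the central spindle in cytokinesis, read 9.01, 9.06 and 9.11 in the arrays labelled vector 48 h, against 11.62, 11.61 and 11.61 in the ISL1 0 h arrays, a response of -2.55 ± 0.0977 (adjusted p = 3.75e-17). Ect2, which activates RhoA at the cleavage furrow, read 9.37, 9.37 and 9.56, against 11.54, 11.66 and 11.63, a response of -2.18 ± 0.137. Every array labelled vector 48 h lay below every ISL1 0 h array for both. Anln, the anillin that scaffolds the contractile ring, fell by 2.27 ± 0.0983, and the spindle motor gene Kif11 fell by 2.17 ± 0.103. In bulk RNA, fewer cells of a kind and less RNA per cell cannot be told apart, here and in the groups that follow.

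The mitosis genes stood highest in the ISL1 0 h arrays. Averaged over the members, an array had 9.62 to 9.75 in those labelled vector 48 h, against 11.33 to 11.35 in the ISL1 0 h arrays, and 10.16 to 10.35 in those labelled ISL1 48 h, against 10.05 to 10.23 in the vector 0 h arrays. In the other response 19 of the 37 rose and 5 fell, beside 21.3% and 20.0% of all genes, with a median of 0.19. The difference was called negative for 36 of the 37, beside 2.47% of all genes. The exception was Fzr1, which was singled out after its values were seen. Kif11 differed by -2.25 ± 0.145, since it read 9.77 in the arrays labelled vector 48 h, against 11.95 in the ISL1 0 h arrays, and 10.86 in those labelled ISL1 48 h, against 10.78 in the vector 0 h arrays. Of the genes with the 10 largest negative differences, 4 belong to chromosome condensation and mitosis: the condensin genes Ncapg2 (-2.61 ± 0.220) and Ncapg (-2.59 ± 0.236), the mitotic kinase gene Pbk (-2.47 ± 0.178) and the kinesin gene Kif20b (-2.47 ± 0.199).

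DNA replication genes fell too, by less. All 39 measured members fell, beside 19.0% of all genes, 16 of them at least 2-fold, with a median response of -0.98. Pola1, the catalytic subunit of the polymerase that primes new strands, read 8.52, 8.54 and 8.72 in the arrays labelled vector 48 h, against 10.44, 10.44 and 10.52 in the ISL1 0 h arrays, a response of -1.87 ± 0.115 (adjusted p = 5.74e-13). Pole, the leading strand polymerase, fell by 1.83 ± 0.104, Gins1, of the replicative helicase, fell by 1.54 ± 0.144 and Tk1, the thymidine kinase of S phase, fell by 1.53 ± 0.0797. Uhrf1, which carries DNA methylation over to the new strand, was chosen after its values were seen, for its promoter, and fell by 1.5 ± 0.107. Of the 39, 31 rose in the other response and 0 fell, beside 21.3% and 20.0% of all genes, with a median of 0.48. The difference was called negative for 35 members, beside 2.47% of all genes. The member averages were 9.68 to 9.85 in the arrays labelled vector 48 h, against 10.77 to 10.78 in the ISL1 0 h arrays, and 10.42 to 10.58 in those labelled ISL1 48 h, against 9.90 to 10.05 in the vector 0 h arrays. With the construct labels in place of the Isl1 signal (labelled ISL1 48 h minus ISL1 0 h), 37 of 37 mitosis genes fell, while of the replication genes 21 fell and 5 rose.

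**Figure D3:**
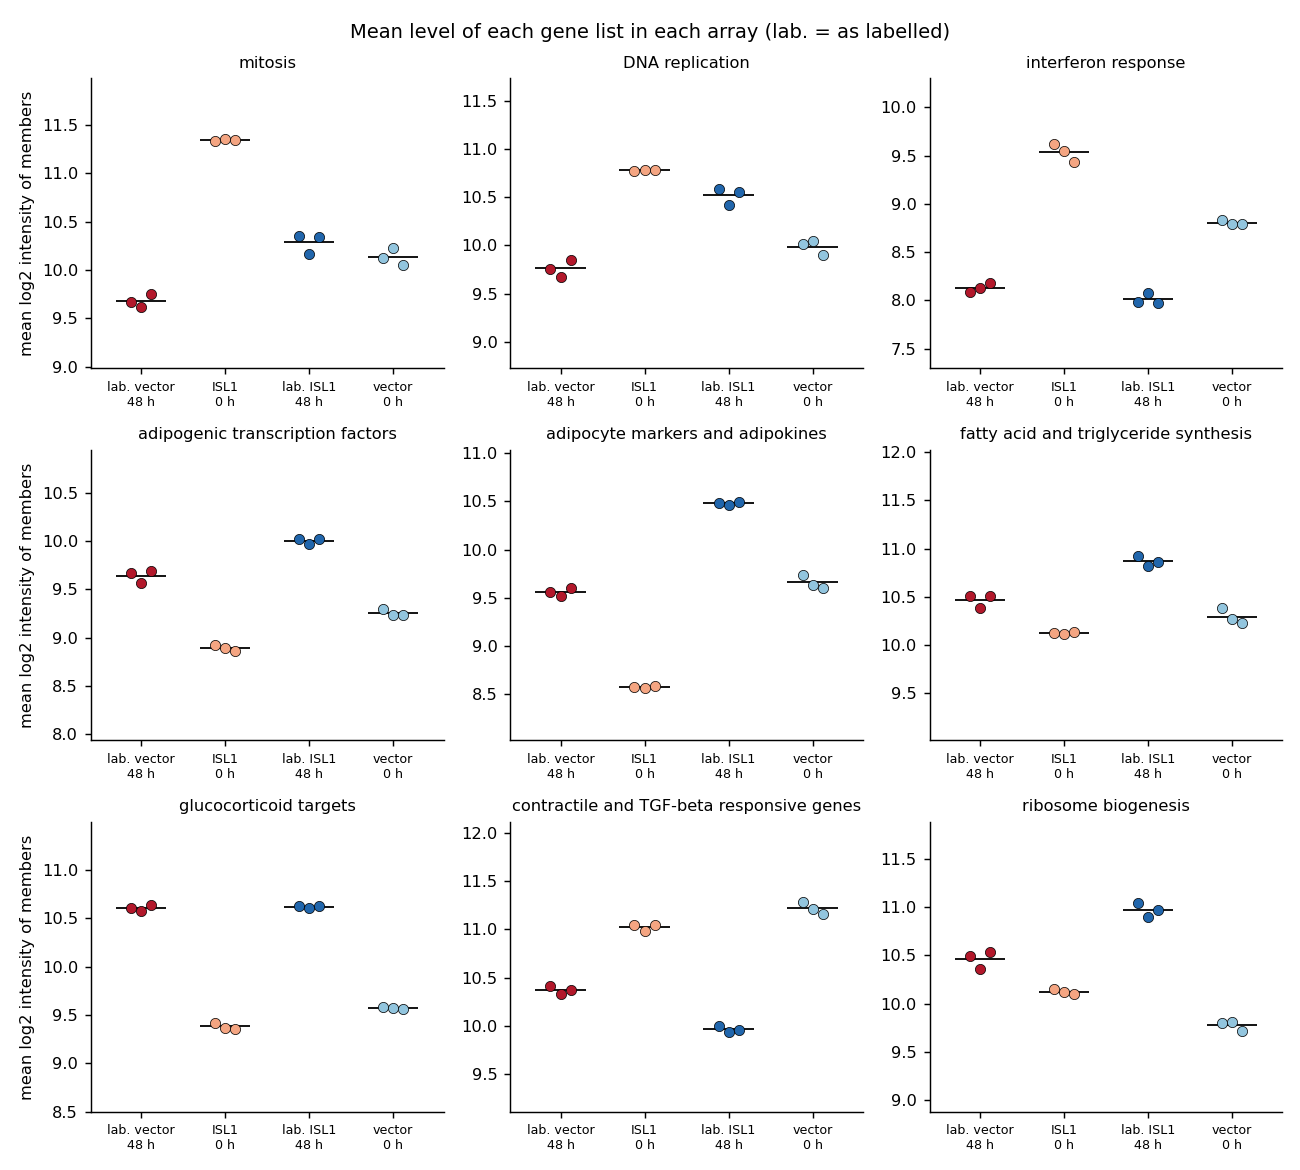
Mean log2 intensity over the measured members of 9 gene lists, 1 point per array and a line at the group mean, for the arrays labelled vector 48 h, ISL1 0 h, labelled ISL1 48 h and vector 0 h, on vertical axes of equal length. For mitosis, DNA replication and interferon response the 3 ISL1 0 h arrays are the highest of the 12, and for adipocyte markers they are the lowest.

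The promoters of the mitosis and replication lists were searched for the elements known to time such genes in the cell cycle. The windows were RefSeq promoters of GRCm38.p6, 250 bases before the annotated start and 50 after it, with the first listed window where a gene had several, and 15614 of the genes tested had one. The motifs, on either strand, were the CHR element of G2/M genes (TTTGAA), the CCAAT box bound by NF-Y (CCAAT) and an E2F site (TTTNNCGC). Of 31 mitosis promoters, 74.2% held the CHR and 77.4% a CCAAT box, beside 15.2% and 38.2% of all promoters. Of 31 replication promoters, 45.2% held the E2F letters and 58.1% a CCAAT box, beside 6.67% and 38.2%. Adipocyte marker promoters, 27 in number, held the CHR in 7.41% and the E2F letters in none. A match describes the letters of the window and is no evidence that a factor binds there. The shares, here and for the interferon list below, describe lists written from general knowledge. They use no array value and say nothing on why the genes fell.

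The 2 mitosis genes with the largest falls among those holding both the CHR and a CCAAT box are shown first, then the 2 replication genes with the largest falls among those holding the E2F letters. Matches are in capitals, no matches overlap, and each window is written 5′ to 3′ on the strand of its gene.
Kif23 promoter, GRCm38.p6 chr9:61946750-61947049, minus strand, CHR and CCAAT matches: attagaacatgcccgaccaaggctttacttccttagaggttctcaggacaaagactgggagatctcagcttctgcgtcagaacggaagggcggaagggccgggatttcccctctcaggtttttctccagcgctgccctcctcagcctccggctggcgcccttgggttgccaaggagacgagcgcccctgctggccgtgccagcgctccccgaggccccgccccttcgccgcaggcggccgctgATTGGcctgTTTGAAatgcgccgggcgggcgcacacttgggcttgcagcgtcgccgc
Ect2 promoter, GRCm38.p6 chr3:27153829-27154128, minus strand, CHR and CCAAT matches: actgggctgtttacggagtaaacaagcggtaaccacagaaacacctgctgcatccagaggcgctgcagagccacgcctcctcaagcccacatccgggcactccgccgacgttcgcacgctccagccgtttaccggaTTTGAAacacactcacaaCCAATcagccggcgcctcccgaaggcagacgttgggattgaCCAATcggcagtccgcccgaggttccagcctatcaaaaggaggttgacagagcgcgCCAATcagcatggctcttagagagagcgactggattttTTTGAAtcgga
Pola1 promoter, GRCm38.p6 chrX:93632106-93632405, minus strand, E2F matches: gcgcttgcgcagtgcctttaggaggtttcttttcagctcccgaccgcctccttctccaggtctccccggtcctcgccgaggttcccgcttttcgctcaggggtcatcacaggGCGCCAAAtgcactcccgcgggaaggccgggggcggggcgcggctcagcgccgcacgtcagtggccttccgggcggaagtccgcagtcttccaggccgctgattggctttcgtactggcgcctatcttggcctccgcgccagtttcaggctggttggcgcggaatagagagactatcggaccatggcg
Uhrf1 promoter, GRCm38.p6 chr17:56303087-56303386, plus strand, E2F matches: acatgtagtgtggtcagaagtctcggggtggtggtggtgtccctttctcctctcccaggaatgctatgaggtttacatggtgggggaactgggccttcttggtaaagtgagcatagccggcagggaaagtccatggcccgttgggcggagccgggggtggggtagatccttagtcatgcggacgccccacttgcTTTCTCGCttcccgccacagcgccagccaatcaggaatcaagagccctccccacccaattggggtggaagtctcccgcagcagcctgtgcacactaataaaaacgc

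Most interferon response genes fell in the same arrays. Of 27 measured members, 23 fell (85.2%, beside 19.0% of all genes), 14 of them at least 2-fold, and none rose, with a median response of -1.08. Ifi207, of the Ifi200 family, is not on this list and went the other way, with a rise of 4.07 ± 0.148. Ifit3, which encodes an antiviral tetratricopeptide protein, read 6.20, 6.01 and 6.46 in the arrays labelled vector 48 h, against 11.32, 11.04 and 10.87 in the ISL1 0 h arrays, a response of -4.86 ± 0.200 (adjusted p = 1.84e-16). Usp18, the protease that removes ISG15 and damps the receptor, read 7.72, 7.64 and 7.87, against 11.24, 10.98 and 10.78, a response of -3.26 ± 0.227. Ifit1, which binds viral RNA caps, read 7.14, 7.20 and 7.16, against 10.42, 10.20 and 9.72, a response of -2.95 ± 0.261. The groups did not overlap for any of the 3, and Ifit1 varied more among the ISL1 0 h arrays than among those labelled vector 48 h. Oasl2, of the oligoadenylate synthetase family, fell by 3.54 ± 0.219. Ifit3 also has a near-identical relative, from which its probe set may not tell it apart.

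The interferon genes differed before the mixture as well. Averaged over the members, the level was 8.09 to 8.18 in the arrays labelled vector 48 h, against 9.43 to 9.62 in the ISL1 0 h arrays, and 7.97 to 8.07 in those labelled ISL1 48 h, against 8.79 to 8.83 in the vector 0 h arrays. The other response showed 18 of the 27 lower and none higher, beside 20.0% and 21.3% of all genes. Its median was -0.65, so both sets of 48 h arrays were low. The difference was called negative for 8 members, beside 2.47% of all genes. Usp18 had the largest negative difference of all genes named, -3.0 ± 0.321, as it read 7.75 in the arrays labelled vector 48 h, against 11.0 in the ISL1 0 h arrays, and 8.60 in those labelled ISL1 48 h, against 8.85 in the vector 0 h arrays.

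The interferon-stimulated response element, searched on either strand as 2 GAAA repeats with 2 bases between them, was found in 47.6% of 21 interferon promoters, beside 3.32% of all promoters and none of the 27 adipocyte marker promoters. The 2 genes with the largest falls among those holding it are shown, with matches in capitals.
Ifit3 promoter, GRCm38.p6 chr19:34583279-34583578, plus strand, ISRE matches: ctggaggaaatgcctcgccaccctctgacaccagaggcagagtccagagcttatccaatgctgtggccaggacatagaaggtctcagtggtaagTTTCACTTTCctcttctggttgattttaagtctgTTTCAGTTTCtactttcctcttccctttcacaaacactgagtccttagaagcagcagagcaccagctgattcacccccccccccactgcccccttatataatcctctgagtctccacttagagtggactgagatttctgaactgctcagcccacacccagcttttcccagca
Ifit1 promoter, GRCm38.p6 chr19:34640639-34640938, plus strand, ISRE matches: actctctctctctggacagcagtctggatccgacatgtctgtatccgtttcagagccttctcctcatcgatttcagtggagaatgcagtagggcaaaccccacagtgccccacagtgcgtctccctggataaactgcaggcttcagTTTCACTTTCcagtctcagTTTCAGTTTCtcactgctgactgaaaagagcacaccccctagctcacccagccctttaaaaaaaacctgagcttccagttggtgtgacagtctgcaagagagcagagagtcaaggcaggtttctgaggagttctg

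**Figure D4:**
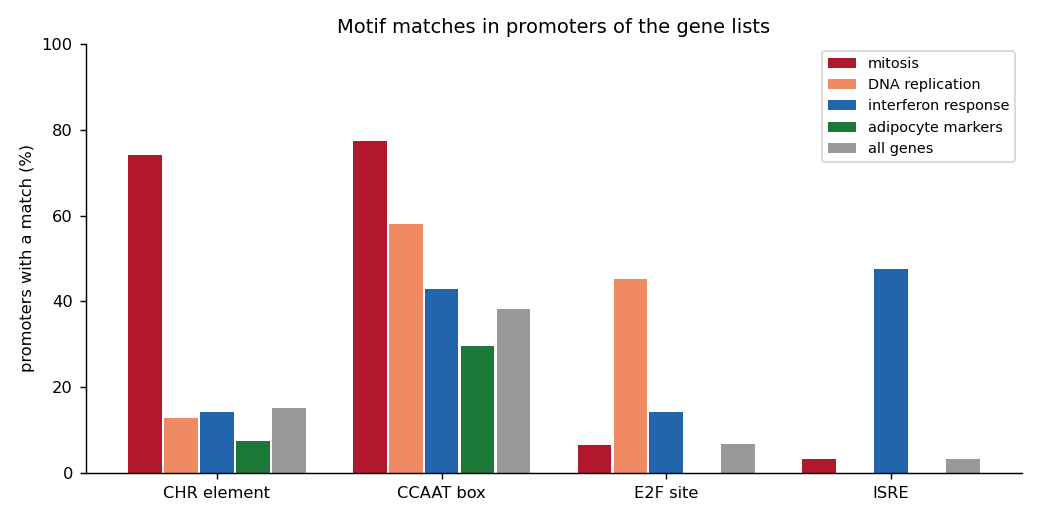
Share of promoter windows with at least 1 match to each of 4 motifs, for 4 gene lists and for all 15614 genes with a window, as bars from 0. The CHR is most frequent in mitosis promoters (74.2%), the E2F letters in replication promoters (45.2%) and the interferon element in interferon promoters (47.6%).

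Most transcription factors that drive fat cell formation rose in the arrays labelled vector 48 h. Of 25 measured, 15 rose (60.0%, beside 14.2% of all genes), 10 of them at least 2-fold, and 2 fell, with a median response of 0.40. The early factor gene Cebpb read 11.20, 11.11 and 11.40 in the arrays labelled vector 48 h, against 9.16, 9.21 and 9.05 in the ISL1 0 h arrays, a response of 2.10 ± 0.0855, and its difference from the other response was 0.12 ± 0.121, not called. Cebpd, its early partner, read 9.56, 9.47 and 9.79, against 7.60, 7.67 and 7.62, a response of 1.98 ± 0.0860. Cebpd rose more than in the other response, by 1.11 ± 0.122. Nfil3, a bZIP factor, had the largest rise of the list (2.92 ± 0.0755), followed after the C/EBP genes by Klf5 (1.56 ± 0.0941) and Srebf1, the SREBP1 gene of lipid synthesis (1.56 ± 0.0942).

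The later factors rose as well. Pparg read 12.66, 12.53 and 12.64 in the arrays labelled vector 48 h, against 11.43, 11.37 and 11.39 in the ISL1 0 h arrays, a response of 1.22 ± 0.0603 (adjusted p = 8.13e-15). Cebpa read 9.31, 9.10 and 9.30, against 8.18, 8.07 and 7.68, a response of 1.26 ± 0.101. The groups did not overlap for either gene. In the arrays labelled ISL1 48 h, against the vector 0 h arrays, Pparg averaged 13.06 and 11.78, and Cebpa 11.22 and 9.12. The difference of the responses was -0.071 ± 0.0853 for Pparg (adjusted p = 0.683), not called, and -0.84 ± 0.143 for Cebpa (adjusted p = 5.06e-05), short of 2-fold. Ebf2, a factor of adipocyte precursors, rose by 1.36 ± 0.0942, Stat5a by 1.0 ± 0.0742 and the PPAR partner Rxra by 0.95 ± 0.0652. Egr2 rose by 1.32 ± 0.113, less than in the other response (-1.04 ± 0.159), and Ppargc1b, a coactivator of mitochondrial genes, had a response of 0.26 ± 0.118 that did not pass and a called difference of -1.17 ± 0.166. The 2 that fell were Zfp467 (-0.51 ± 0.0813) and Ebf1 (-0.37 ± 0.0532).

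Most markers of the fat cell rose with them. Of 36 measured adipocyte markers and adipokines, 24 rose (66.7%, beside 14.2% of all genes), 13 of them at least 2-fold, and only the fatty acid transporter Slc27a1 fell, with a median response of 0.53. Fabp4, the fatty acid carrier of adipocytes, read 11.94, 11.79 and 11.72 in the arrays labelled vector 48 h, against 8.14, 8.33 and 8.24 in the ISL1 0 h arrays, a response of 3.59 ± 0.0846 (adjusted p = 1.94e-21). Retn read 11.94, 11.94 and 12.09, against 8.01, 7.94 and 8.30, a response of 3.90 ± 0.103. Agt read 13.74, 13.68 and 13.74, against 9.77, 9.69 and 9.64, a response of 4.01 ± 0.0667. For all 3 genes every array labelled vector 48 h lay above every ISL1 0 h array. The fatty acid translocase gene Cd36 rose by 3.28 ± 0.158, and the lipolysis genes Abhd5, Lipe and Pnpla2, which encode the activator and the 2 lipases that free fatty acids from stored fat, by 2.25 ± 0.0745, 2.11 ± 0.0837 and 1.77 ± 0.0815. Angptl4, an inhibitor of lipoprotein lipase, rose by 1.84 ± 0.0908, and the lipid droplet genes Cidec and Plin1 by 1.64 ± 0.105 and 1.21 ± 0.0731.

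Several of these genes stood low at 0 h. The marker average was 9.52 to 9.60 in the arrays labelled vector 48 h, against 8.56 to 8.59 in the ISL1 0 h arrays, and 10.46 to 10.50 in those labelled ISL1 48 h, against 9.60 to 9.74 in the vector 0 h arrays. Fabp4, Cd36 and Retn had positive called differences of 2.0 ± 0.120, 1.98 ± 0.224 and 2.39 ± 0.146. Their averages in the arrays labelled vector 48 h (11.82, 9.0 and 11.99) still lay below those in the arrays labelled ISL1 48 h (12.97, 10.47 and 12.69). Adiponectin, Adipoq, read 7.25, 7.03 and 7.41 in the arrays labelled vector 48 h, against 6.47, 6.60 and 6.62 in the ISL1 0 h arrays, a response of 0.67 ± 0.113. In the arrays labelled ISL1 48 h it read 10.95, 10.59 and 10.98, against 10.94, 10.73 and 10.60 in the vector 0 h arrays. Adipoq was thus far lower in all 6 arrays with a high Isl1 signal than in the other 6. Gpd1, which makes glycerol phosphate, shared this pattern, at 8.27 in the arrays labelled vector 48 h, against 7.73 in the ISL1 0 h arrays, and 11.62 in those labelled ISL1 48 h, against 11.50 in the vector 0 h arrays. Carbonic anhydrase 3, Car3, had a positive difference of 2.37 ± 0.194, and so did the glycerol channel gene Aqp7 (1.46 ± 0.156), whose response of 0.21 ± 0.110 did not pass. Called positive differences numbered 6 of the 36 markers, Agt (1.07 ± 0.0944) among them, beside 1.51% of all genes. Called negative differences were found for 3 markers, beside 2.47% of all genes. They were the carrier gene Fabp5 (-2.0 ± 0.106), the adiponectin receptor gene Adipor2 (-1.26 ± 0.110) and G0s2, an inhibitor of fat breakdown (-1.23 ± 0.119). Leptin, Lep, had a response of -0.051 ± 0.106 and did not pass.

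**Figure D5:**
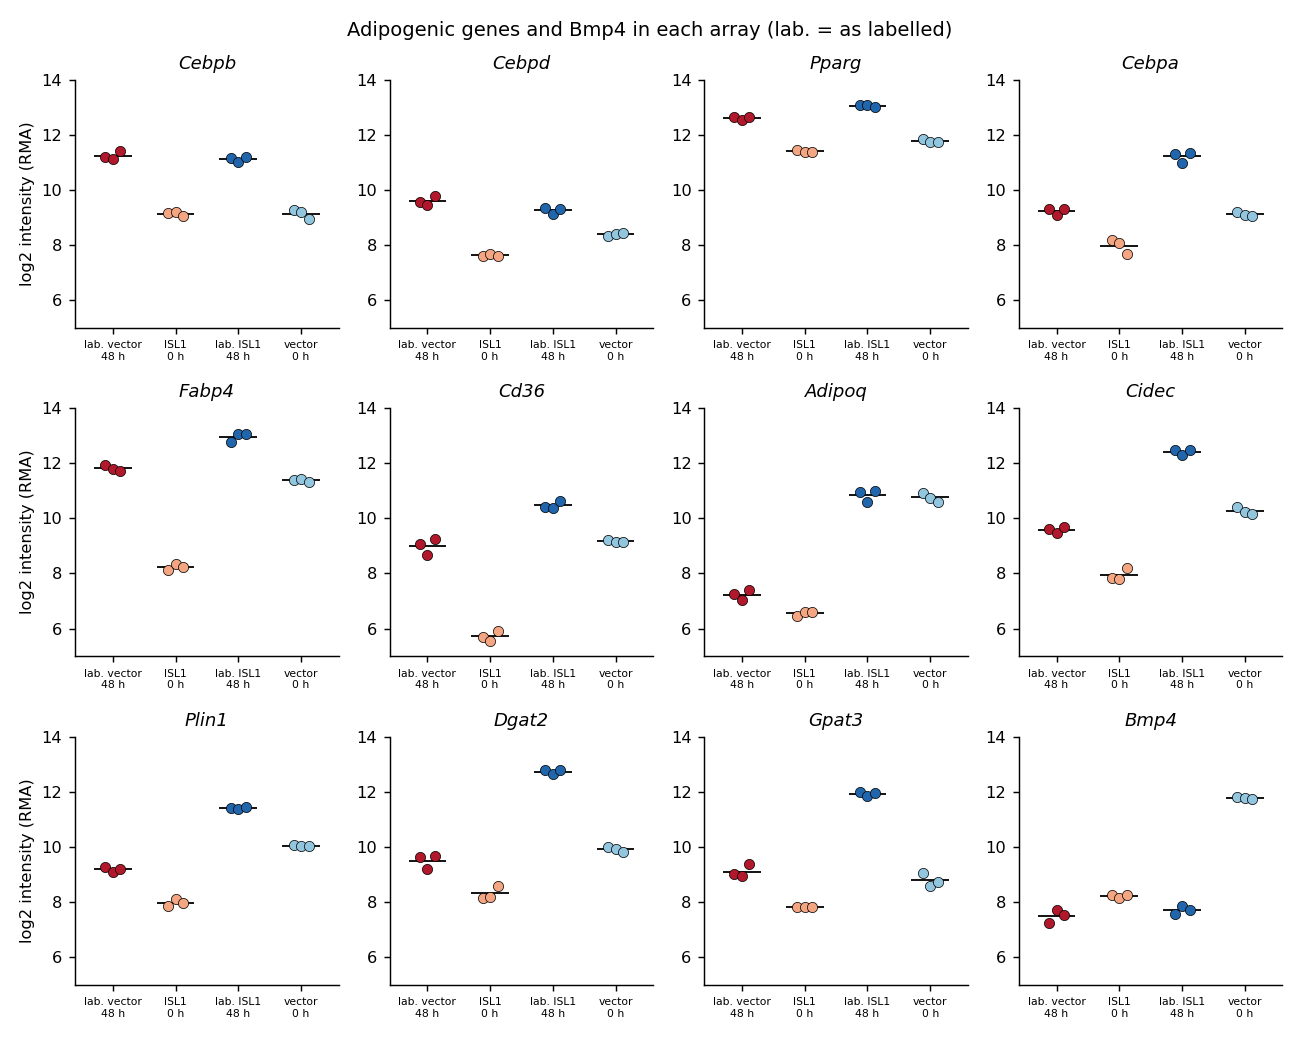
Log2 intensity of 12 genes in each array labelled vector 48 h, ISL1 0 h, labelled ISL1 48 h and vector 0 h, 1 point per array and a line at the group mean. Cebpb averages 11.24 in the arrays labelled vector 48 h and 11.12 in those labelled ISL1 48 h, while Adipoq averages 7.23 and 10.84 in the same groups.

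Some genes that build triglyceride rose less than in the other response. Of 27 measured genes of fatty acid and triglyceride synthesis, 16 rose (59.3%) and 4 fell (14.8%), beside 14.2% and 19.0% of all genes, with a median response of 0.30. Called negative differences were found for 4 of them and a positive one for none, beside 2.47% and 1.51% of all genes. Dgat2, which catalyses the last acylation step, read 9.64, 9.18 and 9.65 in the arrays labelled vector 48 h, against 8.16, 8.20 and 8.57 in the ISL1 0 h arrays, a response of 1.18 ± 0.117. In the other response it averaged 12.73 in the arrays labelled ISL1 48 h, against 9.91 in the vector 0 h arrays, a difference of the responses of -1.64 ± 0.166 (adjusted p = 1.92e-08). The earlier acylation enzymes moved alike: Gpat3 rose by 1.30 ± 0.119 with a difference of -1.85 ± 0.169, and Agpat2 by 0.27 ± 0.0761 with a difference of -1.62 ± 0.108. Lpin1, the phosphatase between them and Dgat2, rose by 1.24 ± 0.0909 with a difference of -1.15 ± 0.129. Of fatty acid synthesis, Fasn, the synthase, rose by 0.70 ± 0.0788, the desaturase gene Scd1 by 0.59 ± 0.0521 and Acly, which makes acetyl-CoA from citrate, by 0.40 ± 0.0762, and for these 3 no difference was called. Acsl4, which activates arachidonic acid, had the largest rise of the list (1.46 ± 0.0575), and Me1, the malic enzyme, and the desaturase gene Fads2 the largest falls (-0.97 ± 0.0733 and -0.86 ± 0.0534).

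Genes that mark or hold the preadipocyte state fell more often than they rose. Of 30 measured, 16 fell (53.3%) and 5 rose (16.7%), beside 19.0% and 14.2% of all genes, with a median response of -0.28. Wnt5a, a Wnt ligand, read 9.53, 9.23 and 9.26 in the arrays labelled vector 48 h, against 11.36, 11.28 and 11.33 in the ISL1 0 h arrays, a response of -1.98 ± 0.0733. Pdgfrb, the PDGF receptor of fat precursors, fell by 1.61 ± 0.0733, the repressor gene Gata2 fell by 1.07 ± 0.0753 and Dlk1, also called Pref-1, fell by 0.61 ± 0.0560. Id2, an inhibitor of bHLH factors and a BMP target, read 12.44, 12.42 and 12.43, against 11.53, 11.60 and 11.71, a response of 0.82 ± 0.0708. In the arrays labelled ISL1 48 h Id2 read 10.52, 10.20 and 10.53, against 12.35, 12.45 and 12.36 in the vector 0 h arrays, a difference of 2.79 ± 0.100. Of the 48 h arrays, those labelled vector were thus high in Id2 and those labelled ISL1 low. Id3 (1.38 ± 0.108), Twist1 (1.23 ± 0.118) and Gata2 (1.01 ± 0.106) also had positive called differences, and Foxo1 rose by 1.19 ± 0.0811. Over the list 4 differences were called positive and none negative, beside 1.51% and 2.47% of all genes.

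Bmp4, the ligand in the study's title, was low in both groups of this comparison. It read 7.22, 7.69 and 7.52 in the arrays labelled vector 48 h, against 8.26, 8.15 and 8.25 in the ISL1 0 h arrays, a response of -0.75 ± 0.104 (adjusted p = 1.56e-06). The arrays labelled ISL1 48 h read 7.55, 7.86 and 7.71, against 11.83, 11.77 and 11.73 in the vector 0 h arrays. Of these 4 groups only the vector 0 h arrays stood high, and the difference of the responses was 3.32 ± 0.147 (adjusted p = 9.97e-15). Of 32 measured ligands, receptors, antagonists and SMAD genes, 9 rose (28.1%) and 8 fell (25.0%), beside 14.2% and 19.0% of all genes, with a median response of 0.03. After median centring 5 fell. Among receptors, Acvr1b, of the activin branch, rose by 1.30 ± 0.0933, and Bmpr1a had 0.0046 ± 0.0748 and did not pass. Among secreted modulators, Bmper rose by 1.18 ± 0.0951, Nbl1 by 1.01 ± 0.0782 and Chrdl1 by 0.74 ± 0.0841, and Grem1, gremlin, fell by 0.81 ± 0.0690. Chrdl1, a chordin-like antagonist, had the other called positive difference (1.73 ± 0.119): it averaged 8.28 in the arrays labelled vector 48 h, against 7.54 in the ISL1 0 h arrays, and 10.35 in those labelled ISL1 48 h, against 11.33 in the vector 0 h arrays. Of the 32, 5 rose and 18 fell in the other response, beside 21.3% and 20.0% of all genes. Of 19 BMP target genes, 5 rose (26.3%) and 7 fell (36.8%), led by Lox (-1.38 ± 0.0637), the inhibitory SMAD gene Smad6 (-1.11 ± 0.0989) and Id4 (-0.94 ± 0.0778) among those that fell, and Tob1 (0.93 ± 0.0644) among those that rose.

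Genes that answer the components of the mixture mostly rose. Of 27 measured glucocorticoid targets, 18 rose (66.7%, beside 14.2% of all genes), 13 of them at least 2-fold, and 3 fell, with a median response of 0.87. Fkbp5, a cochaperone that limits the glucocorticoid receptor, read 12.70, 12.54 and 12.62 in the arrays labelled vector 48 h, against 9.34, 9.38 and 9.37 in the ISL1 0 h arrays, a response of 3.26 ± 0.0675. Its difference from the other response was -0.022 ± 0.0955 and was not called. Glul, glutamine synthetase, rose by 3.52 ± 0.0675, and Hsd11b1, which regenerates active glucocorticoid, by 3.22 ± 0.127 with a called difference of 1.31 ± 0.180. Gadd45b, a stress sensor, and Lox, the collagen crosslinker, were the largest falls of the list (-1.57 ± 0.0994 and -1.38 ± 0.0637). The member averages in the 48 h groups were 10.58 to 10.64 as labelled vector and 10.61 to 10.63 as labelled ISL1, against 9.36 to 9.42 in the ISL1 0 h arrays and 9.56 to 9.58 in the vector 0 h arrays.

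Of 24 cAMP targets, 13 rose (54.2%) and 3 fell (12.5%), beside 14.2% and 19.0% of all genes, with a median response of 0.54. Nr4a1 read 12.64, 12.48 and 12.61 in the arrays labelled vector 48 h, against 8.77, 8.69 and 8.70 in the ISL1 0 h arrays, a response of 3.86 ± 0.0639 with a called difference of 1.40 ± 0.0903. The phosphodiesterase genes Pde10a and Pde7b, whose products break down cyclic nucleotides, rose by 3.21 ± 0.0740 and 2.70 ± 0.104, and Rgs2, a brake on G protein signalling, by 3.10 ± 0.0591. The hormone genes Adm and Stc1 had responses of -2.10 ± 0.114 and -0.93 ± 0.0668. For Stc1 the difference was 2.02 ± 0.0945, as it fell further in the other response. Of 30 immediate early genes, 17 were higher at 48 h than at 0 h (56.7%) and 4 were lower (13.3%), with a median of 0.43. Fosl1 rose by 3.47 ± 0.0918, Myc by 2.26 ± 0.0787 and the phosphatase gene Dusp1 by 1.97 ± 0.0737, while Ptgs2, the inducible cyclooxygenase, and the matrix signalling gene Ccn1 had responses of -0.68 ± 0.104 and -0.55 ± 0.0780.

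Most contractile genes fell. Of 34 measured contractile and TGF-beta responsive genes, 21 fell (61.8%) and 4 rose (11.8%), beside 19.0% and 14.2% of all genes, with a median response of -0.51. Myl9, the regulatory light chain of smooth muscle myosin, read 8.74, 8.60 and 8.97 in the arrays labelled vector 48 h, against 11.84, 11.82 and 11.89 in the ISL1 0 h arrays, a response of -3.08 ± 0.0784. The smooth muscle actin gene Actg2 fell by 2.62 ± 0.0894, transgelin, Tagln, fell by 2.41 ± 0.111 and thrombospondin 1, Thbs1, fell by 2.26 ± 0.0618, while the receptor gene Tgfbr2 and Tgfbi rose by 1.61 ± 0.0568 and 1.14 ± 0.0757. In the other response 29 of the 34 fell, beside 20.0% of all genes, with a median of -1.04. Of the differences, 6 were called positive and 1 negative, beside 1.51% and 2.47% of all genes.

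Of 47 collagens and other matrix genes, 16 rose (34.0%) and 21 fell (44.7%), beside 14.2% and 19.0% of all genes, with a median response of -0.073. Timp3, an inhibitor of matrix proteases, read 7.90, 8.03 and 8.24 in the arrays labelled vector 48 h, against 11.26, 11.34 and 11.20 in the ISL1 0 h arrays, a response of -3.21 ± 0.0824. Its fall was larger in the other response, in which the vector 0 h arrays averaged 13.33, and the difference was 1.18 ± 0.117. Ogn, osteoglycin, and the aggrecanase gene Adamts5 had responses of -2.02 ± 0.134 and -1.97 ± 0.101, and Col18a1, a basement membrane collagen, rose by 1.65 ± 0.0856. Lum, lumican, had a called difference of 2.53 ± 0.180: it averaged 7.94 in the arrays labelled vector 48 h, against 7.17 in the ISL1 0 h arrays, and 9.30 in those labelled ISL1 48 h, against 11.06 in the vector 0 h arrays. The other response had 12 of the 47 higher and 29 lower, beside 21.3% and 20.0% of all genes.

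Of 37 Wnt pathway genes, 6 rose (16.2%, near the 14.2% of all genes) and 11 fell (29.7%, beside 19.0%), with a median response of 0.012. Sfrp2, a secreted Wnt modulator, fell by 2.35 ± 0.0602, the Wnt-induced gene Ccn4 fell by 1.75 ± 0.0862 and Rspo3, an R-spondin that strengthens Wnt signals, fell by 1.82 ± 0.104. Of the 4 groups, Rspo3 stood high in the ISL1 0 h arrays only: it averaged 7.10 in the arrays labelled vector 48 h, against 8.93 in the ISL1 0 h arrays, and 6.94 in those labelled ISL1 48 h, against 6.85 in the vector 0 h arrays, a difference of -1.91 ± 0.147. The coreceptor gene Lrp5 and the ligand gene Wnt4 rose by 1.47 ± 0.0648 and 1.31 ± 0.0956. Of 34 inflammatory genes and chemokines 9 rose (26.5%) and 12 fell (35.3%), with a median response of 0.0097, and beside the acute phase genes above the protease inhibitor gene Serpina3n rose by 3.83 ± 0.0897.

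Where ribosome and mitochondrial genes rose here, they did so by less than 2-fold. Of 30 ribosome biogenesis genes, 20 rose (66.7%, beside 14.2% of all genes), 10 did not pass and none fell, with a median response of 0.34. In the other response all 30 rose, beside 21.3% of all genes, with a median of 1.30. Of the differences, 9 were called negative (28 by the adjusted p alone), beside 2.47% (13.2%) of all genes. The largest rises here were those of Rrp1b (0.82 ± 0.0843) and Bysl (0.81 ± 0.103), which act in ribosomal RNA processing and small subunit assembly. Of 46 respiratory chain and fatty acid oxidation genes, 23 rose, 22 did not pass and 1, Ndufa5, fell, with a median of 0.16, beside 44 that rose and 1 that fell with a median of 0.55 in the other response. Of the 46 differences, 36 were negative by the adjusted p alone, beside 13.2% of all genes, and 2 were called, 1 each way. The negative one was Idh3a, of the citrate cycle (-1.37 ± 0.0959, named after its values were seen), and the positive one Cpt1a, which admits fatty acids to the mitochondrion (1.20 ± 0.0803). Cpt1a averaged 11.72 in the arrays labelled vector 48 h, against 11.21 in the ISL1 0 h arrays, and 10.63 in those labelled ISL1 48 h, against 11.32 in the vector 0 h arrays. Acadm, which opens the oxidation of medium-chain fatty acids, rose by 0.86 ± 0.0603 and Cpt2, of the carnitine shuttle, by 0.58 ± 0.0777. Ndufa5 had -0.21 ± 0.0697, a call lost after median centring and without 1 of 3 arrays (labelled vector 48 h replicate 1 or 2, or ISL1 0 h replicate 3).

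Of 34 genes of insulin and IGF signalling and glucose use, 17 rose and 5 fell (14.7%), where 14.2% of all genes rose and 19.0% fell, with a median response of 0.18. Pyruvate carboxylase, Pcx, which feeds lipid synthesis, read 12.76, 12.67 and 12.75 in the arrays labelled vector 48 h, against 9.88, 9.74 and 9.79 in the ISL1 0 h arrays, a response of 2.92 ± 0.0762. Igfbp4, an IGF carrier, rose by 2.26 ± 0.0649, the receptor substrate gene Irs2 by 2.02 ± 0.0903 and hexokinase 2, Hk2, by 1.46 ± 0.0966, while Igf2 and Irs1 had responses of -0.73 ± 0.0794 and -0.72 ± 0.0849. Of 22 cholesterol genes, 10 rose (45.5%) and 1 fell, led by Hsd17b7 (2.19 ± 0.0660), an enzyme of sterol synthesis, and the cholesterol exporter gene Abca1 (1.17 ± 0.0917), against Ebp, a sterol isomerase (-0.61 ± 0.101). Of 26 unfolded protein and amino acid response genes, 12 fell (46.2%) and 8 rose (30.8%). Those that fell were led by Chac1, which degrades glutathione (-2.05 ± 0.113), and by the amino acid transporter genes Slc7a11 (-1.75 ± 0.136) and Slc7a5 (-1.48 ± 0.0678), and those that rose by Xbp1 (1.05 ± 0.0664) and Manf (0.64 ± 0.0594). Slc7a5 had 0.59 ± 0.0678 in the other response, and its difference was -2.07 ± 0.0959. Of 23 heat shock and oxidative stress genes, 10 rose (43.5%) and 6 fell (26.1%), with Gclc, of glutathione synthesis, at 2.0 ± 0.0739, the cochaperone gene Bag3 at 1.52 ± 0.0623, heme oxygenase 1, Hmox1, at -1.08 ± 0.0813 and Gclm at -0.81 ± 0.0739.

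Of 22 cell cycle inhibitors and p53 targets, 5 rose (22.7%), with Btg1 the largest (0.90 ± 0.0573), and 7 fell (31.8%), beside 14.2% and 19.0% of all genes. Of 22 brown and beige fat genes, 4 rose (18.2%) and 2 fell (9.09%). Ebf2, described above, had the largest rise (1.36 ± 0.0942) and the thioesterase gene Acot2 the largest fall (-1.40 ± 0.0816). Of 28 Hox genes, 1 rose (3.57%) and 4 fell (14.3%), both below those shares, with the largest change in Hoxc9 (-0.54 ± 0.0797). The LIM partner genes and genes of lineages in which ISL1 acts, Isl1 included, numbered 45 measured: 5 rose and 5 fell (11.1% each, below the shares of all genes), and after median centring 10 rose. Fgf10, a growth factor of limb and fat development, rose by 1.07 ± 0.0740 and the LIM-only gene Lmo4 by 0.57 ± 0.0734, while Ldb1, the cofactor that bridges LIM factors, fell by 0.40 ± 0.0497. The axon guidance gene Slit2 had a called difference of 1.43 ± 0.0965. The motor neuron gene Mnx1 had 0.29 ± 0.143 and the insulin gene Ins2 0.051 ± 0.117, and neither passed.

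Markers of other cells were checked in the same arrays. Of 16 osteoblast and chondrocyte genes 3 rose (18.8%) and 1 fell (6.25%), beside 14.2% and 19.0% of all genes, of 22 muscle genes 0 and 1, of 16 macrophage and blood genes 2 (12.5%) and 1 (6.25%). Of 14 endothelial genes 1 rose and 2 fell, and 1 of 15 epithelial and 1 of 19 neural and islet genes rose. Apart from the rises among osteoblast and chondrocyte genes, these shares lay below those of all genes. At least 2-fold was the endothelial sialomucin gene Emcn alone (1.12 ± 0.118), which averaged 7.68 in the arrays labelled vector 48 h, against 6.56 in the ISL1 0 h arrays. The macrophage list averaged 6.96 to 7.03 per array in those labelled vector 48 h, against 6.91 to 7.01 in the ISL1 0 h arrays. Their part in the results was not tested. Of the markers of the line itself, Dlk1 and Pdgfra were high in every array, at 13.61 and 12.38 in those labelled vector 48 h, against 14.21 and 12.67 in the ISL1 0 h arrays. Cd34 stood far lower, at 7.17 in the arrays labelled vector 48 h, against 7.76 in the ISL1 0 h arrays, a response of -0.60 ± 0.0764. Pdgfrb fell, as described above, and Ly6a and Thy1, also set as markers, are not given here.

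The genes with the largest differences between the responses fell into patterns seen in all 12 arrays. Il1rn, the interleukin 1 receptor antagonist, read 11.76, 11.76 and 11.77 in the arrays labelled vector 48 h, against 8.39, 8.23 and 8.30 in the ISL1 0 h arrays, and 7.08, 7.53 and 7.18 in those labelled ISL1 48 h, against 6.98, 6.97 and 7.13 in the vector 0 h arrays, a difference of 3.22 ± 0.141. Of the 4 groups it was high in the arrays labelled vector 48 h alone. Mamdc2, a matrix protein gene, averaged 9.81 in the arrays labelled vector 48 h, against 7.93 in the ISL1 0 h arrays, and 7.64 in those labelled ISL1 48 h, against 9.97 in the vector 0 h arrays, the largest difference of the genes named by the rule (4.20 ± 0.140). For Lyz2, lysozyme 2 of myeloid cells, the difference of 4.04 ± 0.123 came with a response of -0.45 ± 0.0868: it averaged 12.05 in the vector 0 h arrays and at most 7.57 in the other groups. Ptprq, a receptor phosphatase gene, shared this pattern with a difference of 2.88 ± 0.136. Vstm2a, a secreted regulator of preadipocytes, rose by 2.65 ± 0.0753 with a difference of 2.90 ± 0.106, and the death receptor gene Tnfrsf21 by 1.74 ± 0.0646 with 2.51 ± 0.0914. Xpnpep2, an aminopeptidase gene, had 0.21 ± 0.0943 and a difference of 2.44 ± 0.133.

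Among the largest negative differences, some genes were, of the 4 groups, high in the ISL1 0 h arrays only. Lypd6 averaged 7.10 in the arrays labelled vector 48 h, against 9.93 in the ISL1 0 h arrays, and 7.30 in those labelled ISL1 48 h, against 7.21 in the vector 0 h arrays, a difference of -2.92 ± 0.106. Scn7a, a sodium channel family gene, and Ccdc141 shared this pattern, with responses of -2.71 ± 0.0883 and -3.03 ± 0.131 and differences of -2.52 ± 0.125 and -2.57 ± 0.186. Others rose in the arrays labelled ISL1 48 h: Ppa1, the inorganic pyrophosphatase, averaged 10.58 in the arrays labelled vector 48 h, against 10.76 in the ISL1 0 h arrays, and 11.92 in those labelled ISL1 48 h, against 9.55 in the vector 0 h arrays, a difference of -2.55 ± 0.108. Rasgef1b, an exchange factor gene, fell by 0.76 ± 0.144 and differed by -2.74 ± 0.203.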

How the data were processed

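Total RNA from 27 samples was hybridised to Affymetrix mouse arrays, with an array for each sample. The authors processed the arrays with RMA, per the submitters' processing notes (program and version not given in the sources used here). As deposited, expression values are log2 intensities: the base is not stated by the labels and was read from the values, which run between 3.35 and 14.85. RMA's quantile step ties the arrays' distributions together, so changes are relative to the bulk of the genes.

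Of 28853 probe sets, the 21789 with 1 gene symbol were kept, and of several for a gene the one with the highest mean, which gave 19938 genes. Symbols came from the platform table and RefSeq. With limma 3.58.1 (R 4.3.3) 9 group means were estimated from the 27 arrays, with empirical Bayes variances and two-sided moderated tests, adjusted by Benjamini and Hochberg within each comparison. Isl1 stayed in the fit, in the 19938 genes of the adjustment and in the count of its list, but no test of it is reported. The fit was tested on simulated data.

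The comparison, its members, the 32 lists (963 entries, 905 measured, written from general knowledge and sharing genes) and the tests were chosen with earlier results of these data known. Genes were named by rule: Isl1, Bmp4, Pparg, Cebpa, Cebpb and Cebpd, the 15 largest rises and 15 largest falls without overlap of arrays, the 10 largest called differences each way, of each list the 4 largest changes and 2 largest against its majority, and any member of the 6 lists on fat cell, lipid, BMP and ISL1 lineage genes. Symbols of predicted genes, clones and small RNAs were passed over. No set test was run: list counts are given with the shares of all genes called. Members of lists without a probe set of 1 symbol are not reported here. Alternatives covered scaling, filters, probe set choice, variance models, replicate blocks, leaving out arrays and the 48 h labels.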

Additional observations from a re-analysis of the deposited data

Results flagged for a closer look

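Each gene below was named above and had a response in the arrays labelled vector 48 h minus ISL1 0 h that differed at least 2-fold, with a Benjamini-Hochberg adjusted p under 0.05 in limma's test of the difference itself, from that in the arrays labelled ISL1 48 h minus vector 0 h. Values are log2 differences, response minus other response, with 3 arrays in each of 4 groups, and no cause was tested. By label these values are vector minus ISL1 added over both times, and they are differences of responses only under the choice by Isl1 signal. Over all genes tested, 3.98% met the same condition.

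Cell cycle genes were lower by this measure: Kif11 -2.25, Ect2 -2.24, Anln -1.78, Kif23 -1.61, Ncapg2 -2.61, Ncapg -2.59, Pbk -2.47 and Kif20b -2.47 of mitosis. Of DNA replication, Gins1 had -2.09, Pole -2.0, Tk1 -2.0, Pola1 -1.87 and Uhrf1 -1.85. Interferon genes were lower as well, with -3.0 for Usp18, -1.73 for Ifit1, -1.37 for Oasl2 and -1.0 for Ifit3.

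Among fat cell genes the differences ran both ways. They were positive for Retn (2.39), Car3 (2.37), Fabp4 (2.0), Cd36 (1.98), Aqp7 (1.46), Cebpd (1.11) and Agt (1.07). They were negative for Fabp5 (-2.0), Gpat3 (-1.85), Dgat2 (-1.64), Agpat2 (-1.62), Adipor2 (-1.26), G0s2 (-1.23), Ppargc1b (-1.17), Lpin1 (-1.15) and Egr2 (-1.04).

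Genes of BMP signalling and of the preadipocyte state had positive differences: Bmp4 3.32, Id2 2.79, Chrdl1 1.73, Id3 1.38, Twist1 1.23 and Gata2 1.01. Targets of the mixture were Stc1 (2.02), Nr4a1 (1.40), Hsd11b1 (1.31) and Pde7b (1.07), with Ptgs2 the other way (-1.42). Among secreted proteins of the acute phase and the matrix, positive differences were those of Prg4 (2.35), Saa3 (2.31), Orm1 (1.84), Orm3 (1.61), Lum (2.53), Timp3 (1.18) and Ogn (1.16).

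Stress and metabolic genes had -2.07 (Slc7a5), -1.64 (Slc7a11), -1.28 (Chac1), -1.03 (Hmox1), 1.14 (Bag3), 1.64 (Hsd17b7) and 1.06 (Irs1). The fatty acid oxidation gene Cpt1a had 1.20 and Idh3a -1.37. Of other genes, Slit2 had 1.43, Tgfbi 1.38, Sorbs2 1.07, Emcn 1.15 and Rspo3 -1.91. The largest positive differences by the naming rule were those of Mamdc2 (4.20), Lyz2 (4.04), Il1rn (3.22), Vstm2a (2.90), Ptprq (2.88), Tnfrsf21 (2.51) and Xpnpep2 (2.44), beside Bmp4, Id2 and Lum. The largest negative ones not yet given were those of Lypd6 (-2.92), Rasgef1b (-2.74), Ccdc141 (-2.57), Ppa1 (-2.55) and Scn7a (-2.52). Rxfp1, chosen after its values were seen, had -2.32.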

How the results depend on the processing

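The count of genes called in the response, 6619, ran between 6603 and 7904 over another scaling (median centring, quantile normalization), a filter on genes with a mean under 6, averaging of probe sets, a trended prior, array weights and fits on 12 or 6 arrays. It ran between 5844 and 6157 without replicates of either group in turn (1006 to 1032 at least 2-fold, main 1013). With the 48 h arrays taken by construct label it was 8590, and 1377 at least 2-fold. Called differences of at least 2-fold, 794, ran between 781 and 827, and those by the adjusted p alone, 4888, between 4443 and 6100. Their split by sign moved: of at least 2-fold, 301 were positive and 493 negative as reported, and 353 and 448 after quantile normalization. Without replicate 2 of the arrays labelled ISL1 48 h they numbered 270 and 549. By the adjusted p alone, 2266 were positive and 2622 negative as reported, and 3089 and 2818 after quantile normalization. With the replicate number as a block the response had 6606 calls and the difference 4881 (794 at least 2-fold). Same-numbered arrays of the groups compared had residual correlations of 0.007, -0.033 and -0.254, which show no pairing by number. With 3 arrays a group, such a check cannot settle whether arrays were paired. Between the 48 h groups the correlations of same-numbered arrays were 0.314, 0.547 and 0.217, and the block changed none of these counts by more than 1.5 times. The counts of list members by quantile normalization, by construct label and without single replicates were chosen after seeing the data. After centring on array medians, 5 BMP pathway genes were lower (8 as reported), 10 genes of ISL1 lineages higher (5) and 0 respiratory genes lower (1). Without single replicates the last 2 counts ran between 2 and 5 and between 0 and 1. After quantile normalization 2 cholesterol genes were lower (1). With the 48 h arrays taken by construct label, 5 replication genes rose (0) and 21 fell (39). Genes lower numbered 0 of the adipocyte markers (1), 1 of the adipogenic factors (2), 7 of lipid synthesis (4), 2 of the respiratory chain (1), 7 of cholesterol (1), 3 of insulin signalling (5) and 5 of cAMP targets (3). Genes higher numbered 10 of the Wnt pathway (6), 13 of the unfolded protein response (8) and 10 of ISL1 lineages (5). The other counts of list members stayed within 1.5 times. For 181 named genes, 3725 of 3801 recomputed values kept their sign and side of the threshold, 35 lost a call, 18 gained one, 23 uncalled values changed sign and no called value did. Among the differences, those of Ifit3, Gata2, Egr2 and Hmox1 lie near 2-fold and each lost the call without 1 of several arrays. Detection above background was not assessed, and 3 arrays a group limit the precision.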
